A study of Mus musculus with 11 samples.

Results

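Transcripts of 9 genes for enzymes of the citric acid cycle were examined in the quadriceps, a thigh muscle, of aged mice. The 9 genes were taken by symbol from a list of the cycle's enzymes, Cs, Idh3a, Idh3b, Idh3g, Ogdh, Dlst, Suclg1, Sucla2 and Mdh2. Each symbol matched 1 Ensembl identifier of the deposited count table, so that they are 9 of its 53465 genes. All mice were of the strain given as C57L/6JRj, were 18 months old when treatment began and were treated for 10 weeks, 5 libraries coming from the group labelled DMSO, the solvent control, and 6 from the group labelled Myriocin. Myriocin is a fungal inhibitor of serine palmitoyltransferase, which starts the synthesis of sphingolipids and ceramides. No genetic change is named for either group, young mice are not among these samples, and the sources used here give neither dose nor sex. The labels do not state that each library is a separate mouse, so the spread and the p-values below describe these libraries.

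The citric acid cycle runs in the mitochondrial matrix. It oxidises the acetyl group of acetyl-CoA, made from pyruvate, fatty acids and amino acids, to carbon dioxide, and passes the electrons to the respiratory chain as NADH and reduced flavin. In muscle its capacity follows the mitochondrial content of the fibres, and citrate synthase activity is a common laboratory measure of that content. The cycle also exchanges intermediates with amino acid and glucose metabolism, through reactions that fill it and drain it. A transcript level is not an enzyme activity, and neither activity nor flux was measured here.

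The genes lie on 9 chromosomes, with positions given on build GRCm38 from GENCODE release M21, where all are protein coding. Cs (ENSMUSG00000005683) lies on chromosome 10 from 128337734 to 128362479 on the plus strand and encodes citrate synthase. The catalytic subunit of the NAD-linked isocitrate dehydrogenase comes from Idh3a (ENSMUSG00000032279), on chromosome 9 from 54586334 to 54604661, plus strand. Its other subunits come from Idh3b (ENSMUSG00000027406), on chromosome 2 from 130279309 to 130284547, minus strand, and from Idh3g (ENSMUSG00000002010), on chromosome X from 73778963 to 73786897, minus strand. Ogdh (ENSMUSG00000020456), on chromosome 11 from 6291633 to 6356642, plus strand, encodes the oxoglutarate dehydrogenase subunit, and Dlst (ENSMUSG00000004789), on chromosome 12 from 85110833 to 85134845, plus strand, the succinyltransferase core of the same complex. Suclg1 (ENSMUSG00000052738), on chromosome 6 from 73248382 to 73276911, plus strand, encodes the alpha subunit of succinyl-CoA synthetase, and Sucla2 (ENSMUSG00000022110), on chromosome 14 from 73525319 to 73596142, plus strand, its ATP-forming beta subunit. Mdh2 (ENSMUSG00000019179), on chromosome 5 from 135778480 to 135790398, plus strand, encodes the mitochondrial malate dehydrogenase that closes the cycle. Exons were shared with another annotated gene in 1 case, 5 exon bases of Idh3b that overlap Nop56 on the opposite strand.

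The stretches before the transcription starts of 4 of these genes are shown as examples of what precedes genes of different steps of the cycle, chosen because their windows lie before both the RefSeq and the GENCODE start. Promoter windows were matched by symbol in the RefSeq table (build GRCm38.p6) for 8 of the 9 genes, all but Idh3a. The windows printed are 250 bases long, 5′ to 3′ on the strand of the gene, and end just before the RefSeq start. They lie at chr10:128337477-128337726 on the plus strand for Cs, chr11:6291347-6291596 on the plus strand for Ogdh, chr12:85110583-85110832 on the plus strand for Dlst and chrX:73786898-73787147 on the minus strand for Idh3g. For Ogdh it is the first of 6 windows in that table. Capitals mark matches, on either strand, to the letters CCAAT (the CCAAT box), CGGAAG (the core bound by ETS factors), GGGCGG (the GC box) and AAGGTCA (the half-site of oestrogen-related receptors).
Cs: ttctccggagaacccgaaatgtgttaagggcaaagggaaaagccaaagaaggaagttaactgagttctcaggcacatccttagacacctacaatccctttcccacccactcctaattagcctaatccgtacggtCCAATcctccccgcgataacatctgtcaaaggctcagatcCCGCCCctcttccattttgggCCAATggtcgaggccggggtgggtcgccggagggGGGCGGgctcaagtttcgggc
Ogdh: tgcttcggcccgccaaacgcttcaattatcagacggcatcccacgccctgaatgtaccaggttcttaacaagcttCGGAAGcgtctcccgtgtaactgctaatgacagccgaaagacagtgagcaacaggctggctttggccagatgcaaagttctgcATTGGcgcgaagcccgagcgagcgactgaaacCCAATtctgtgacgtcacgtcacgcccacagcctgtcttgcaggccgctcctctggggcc
Dlst: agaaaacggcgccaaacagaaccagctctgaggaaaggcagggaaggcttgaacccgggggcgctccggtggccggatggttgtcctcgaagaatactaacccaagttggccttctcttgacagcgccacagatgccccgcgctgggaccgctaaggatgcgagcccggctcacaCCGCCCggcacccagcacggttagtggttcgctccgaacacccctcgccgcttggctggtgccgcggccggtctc
Idh3g: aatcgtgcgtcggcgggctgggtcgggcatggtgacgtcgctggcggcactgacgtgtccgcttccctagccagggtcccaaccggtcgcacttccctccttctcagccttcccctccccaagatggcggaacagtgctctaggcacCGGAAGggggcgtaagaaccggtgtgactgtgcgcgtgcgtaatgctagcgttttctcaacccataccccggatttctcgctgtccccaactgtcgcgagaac

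The window of Cs held 2 CCAAT boxes, starting 116 and 55 bases before the start, and 2 GC boxes at 76 and 21 bases. That of Ogdh held 2 CCAAT boxes at 92 and 60 bases and 1 ETS core at 175 bases. Dlst had 1 GC box at 75 bases, and Idh3g had 1 ETS core at 103 bases. Over all windows of the 8 genes, CCAAT was found for 3 genes (Cs, Idh3b, Ogdh), where 33.8% of the 32851 windows in the table, each cut to 250 bases, held it. CGGAAG was found for 3 (Idh3g, Ogdh, Mdh2), against 13.6% of windows, and GGGCGG for 5 (Cs, Ogdh, Dlst, Sucla2, Mdh2), against 32.7%. AAGGTCA was found for 0 of 8, against 4.08%. A gene with several windows had more chances of a match than a single window, so these counts are descriptions of the letters only.

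Reads assigned to genes numbered 22241131 to 23163721 per library, and the 9 genes together took 0.430% to 0.504% of them. The label of the tissue was borne out by the fibre genes Acta1, Ckm, Ttn, Mb and Neb, which together stood at 59281 to 75142 CPM (the reads of a gene relative to all gene counts of its library), and Myh4, the myosin of fast IIb fibres, alone took 58040 to 75704 CPM. Several libraries stood apart in transcripts of other cell types. Of the 6 neutrophil genes checked, 3 passed the filter on low counts, and the summed level of all 6 was 852 CPM in DMSO replicate 2, against 0.405 to 35.8 CPM in the other DMSO libraries and 0.571 to 117 CPM with myriocin. The 5 adipocyte genes, all tested, summed to 1213 CPM in DMSO replicate 2 and to at most 433 CPM elsewhere. The 8 liver genes, 7 of them tested, summed to 116 CPM in DMSO replicate 4, 101 CPM in DMSO replicate 5 and 123 CPM in Myriocin replicate 4, and to at most 30.2 CPM in the others. None of these marker genes was at 0 in all 11 libraries. Results were therefore also computed without DMSO replicates 4 and 5 and Myriocin replicate 4, and without the 3 libraries farthest out, which were Myriocin replicate 4 and DMSO replicates 2 and 5. Both choices were made after seeing the data.

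Against this background the 9 cycle transcripts had overlapping levels in both groups, and 0 of 9 passed the test between myriocin and DMSO. In the edgeR quasi-likelihood fit over 14117 genes, 0 genes passed at a Benjamini-Hochberg adjusted p under 0.05 (0% of the genes tested), and 660 genes had an unadjusted p under 0.05 (4.68%). Of the 9 genes, 0 were among those 660. DESeq2, run on the same genes, called 6 genes and limma-voom 0, and none of the 9 cycle genes was called by either. The fitted log2 fold changes, myriocin minus DMSO, were positive for 3 of the 9 genes and negative for 6, with a median of -0.02 beside -0.01 for all genes tested. All 9 lay between -0.04 and 0.08.

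**Figure D1:**
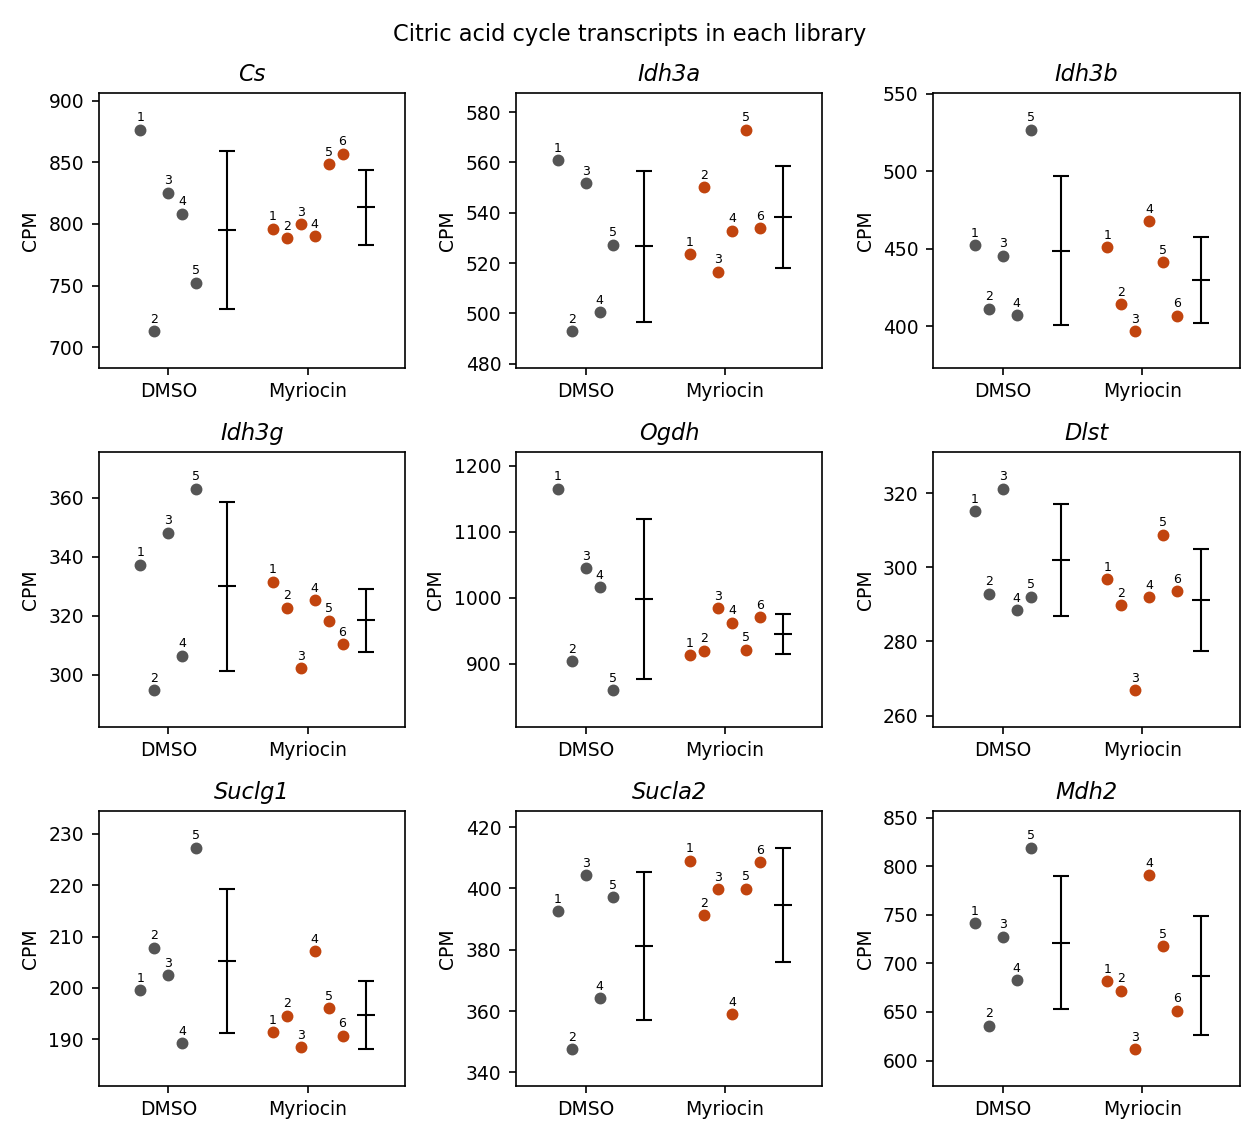
CPM of each of the 9 cycle genes (vertical axes, linear, each with its own range and not starting at 0) in the 5 DMSO libraries (grey) and 6 myriocin libraries (orange), numbered by replicate, with the mean and SD of each group beside the points. The 2 groups overlap in all 9 panels.

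Cs, whose enzyme joins acetyl-CoA to oxaloacetate and opens the cycle, stood at 876, 713, 825, 808 and 752 CPM in DMSO replicates 1 to 5. With myriocin its lowest, median and highest levels were 789, 798 and 857 CPM. The myriocin libraries all fell inside the DMSO range, which was set by replicate 1 at the top and replicate 2 at the bottom. Means were 795 ± 63.7 CPM (SD, n = 5) and 813 ± 30.8 CPM (SD, n = 6), and the log2 fold change was 0.07 (SE 0.07, 95% interval -0.08 to 0.22, edgeR adjusted p = 0.945). Without the 3 libraries farthest out the fitted value of Cs was -0.01.

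The NAD-linked isocitrate dehydrogenase makes oxoglutarate and is a regulated step of the cycle, with Idh3a giving the catalytic subunit. Idh3a had 561, 493, 552, 500.5 and 527 CPM in DMSO replicates 1 to 5 and a lowest, median and highest level of 517, 533 and 573 CPM with myriocin. Its groups overlapped, with DMSO replicates 2 and 4 below all myriocin libraries and Myriocin replicate 5 above all DMSO libraries, and its log2 fold change was 0.07 (SE 0.06, interval -0.07 to 0.20, edgeR adjusted p = 0.940). Idh3b had 452, 411, 445, 407 and 527 CPM with DMSO, against 397, 428 and 468 CPM with myriocin. One DMSO library, replicate 5, lay above all others for Idh3b, and the remaining DMSO values lay within the myriocin range. The log2 fold change of Idh3b was -0.03 (SE 0.09, interval -0.22 to 0.16, edgeR adjusted p = 0.981). Idh3g had 337, 295, 348, 306 and 363 CPM with DMSO, against 302, 321 and 332 CPM with myriocin. For this subunit the DMSO libraries spread on both sides of the myriocin range, and the log2 fold change was -0.02 (SE 0.08, interval -0.18 to 0.15, edgeR adjusted p = 0.982). Without DMSO replicate 5 the fitted values of Idh3b and Idh3g were 0.05 and 0.03, and that library is 1 of the 3 with liver transcripts. Idh3g was also above 0 when DMSO replicate 3 (0.0005) or Myriocin replicate 3 (0.0012) was left out.

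The oxoglutarate dehydrogenase complex turns oxoglutarate into succinyl-CoA. Ogdh, its first enzyme, had 1165, 904, 1045, 1016 and 859.7 CPM in DMSO replicates 1 to 5 and a lowest, median and highest level of 913, 942 and 984 CPM with myriocin. The myriocin libraries formed a narrow band inside a wide DMSO spread, at 945 ± 30.6 CPM (SD, n = 6) against 998 ± 121 CPM (SD, n = 5). The log2 fold change of Ogdh was -0.04 (SE 0.08, interval -0.21 to 0.13, edgeR adjusted p = 0.961). Without the 3 libraries farthest out it was -0.17, with an unadjusted p of 0.0161 and an edgeR adjusted p of 0.550. Without DMSO replicate 1, the highest library, it was 0.02. Dlst, which carries the lipoyl arm of the complex, had 315, 293, 321, 289 and 292 CPM with DMSO and 267, 293 and 309 CPM with myriocin. Its levels varied least among the 9 genes, with an SD over the 11 libraries of 0.08 on the log2 scale, and its log2 fold change was -0.02 (SE 0.06, interval -0.15 to 0.12, edgeR adjusted p = 0.982).

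Succinyl-CoA synthetase makes ATP or GTP directly, according to which beta subunit joins the alpha subunit from Suclg1. Suclg1 had 199.5, 208, 202, 189 and 227 CPM in DMSO replicates 1 to 5, against 188, 193 and 207 CPM with myriocin. DMSO replicate 5 was again the highest library. Myriocin replicate 4, the highest of its group at 207 CPM, lay just below DMSO replicate 2 at 208 CPM. The log2 fold change of Suclg1 was -0.04 (SE 0.07, interval -0.19 to 0.10, edgeR adjusted p = 0.958). Sucla2, the ATP-forming beta subunit, had 393, 348, 404, 364 and 397 CPM with DMSO, against 359, 399.9 and 409 CPM with myriocin. Here 5 of 6 myriocin libraries lay above the DMSO mean, and the exception was Myriocin replicate 4. By the same count in CPM, 4 of 6 lay above for Cs and Idh3a. Below the DMSO mean lay 6 of 6 for Ogdh, 5 of 6 for Idh3g, Dlst, Suclg1 and Mdh2, and 4 of 6 for Idh3b. How often all genes tested gave such counts is not given here. Sucla2 had the highest fold change of the 9 genes, a log2 value of 0.08 (SE 0.07, interval -0.06 to 0.23, edgeR adjusted p = 0.936), which was within the spread of the libraries. Without DMSO replicate 2 the value of Sucla2 was 0.04, that of Idh3a 0.03 and that of Cs 0.02.

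Mdh2, which regenerates oxaloacetate from malate, had 742, 636, 728, 683 and 819 CPM in DMSO replicates 1 to 5, against 611, 677 and 791 CPM with myriocin. It varied most among the 9 genes, with an SD over the 11 libraries of 0.15 on the log2 scale, and the groups overlapped over most of their range. Its log2 fold change was -0.03 (SE 0.09, interval -0.24 to 0.17, edgeR adjusted p = 0.976). The 95% intervals of the 9 genes reached at most from -15.1% to 17.1% of the DMSO level. Their median half-width was 0.15 on the log2 scale, beside 0.25 for all genes tested and 0.18 for the 1201 genes with at least 100 CPM. The missing calls therefore do not show equal levels, but leave differences of these sizes.

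**Figure D2:**
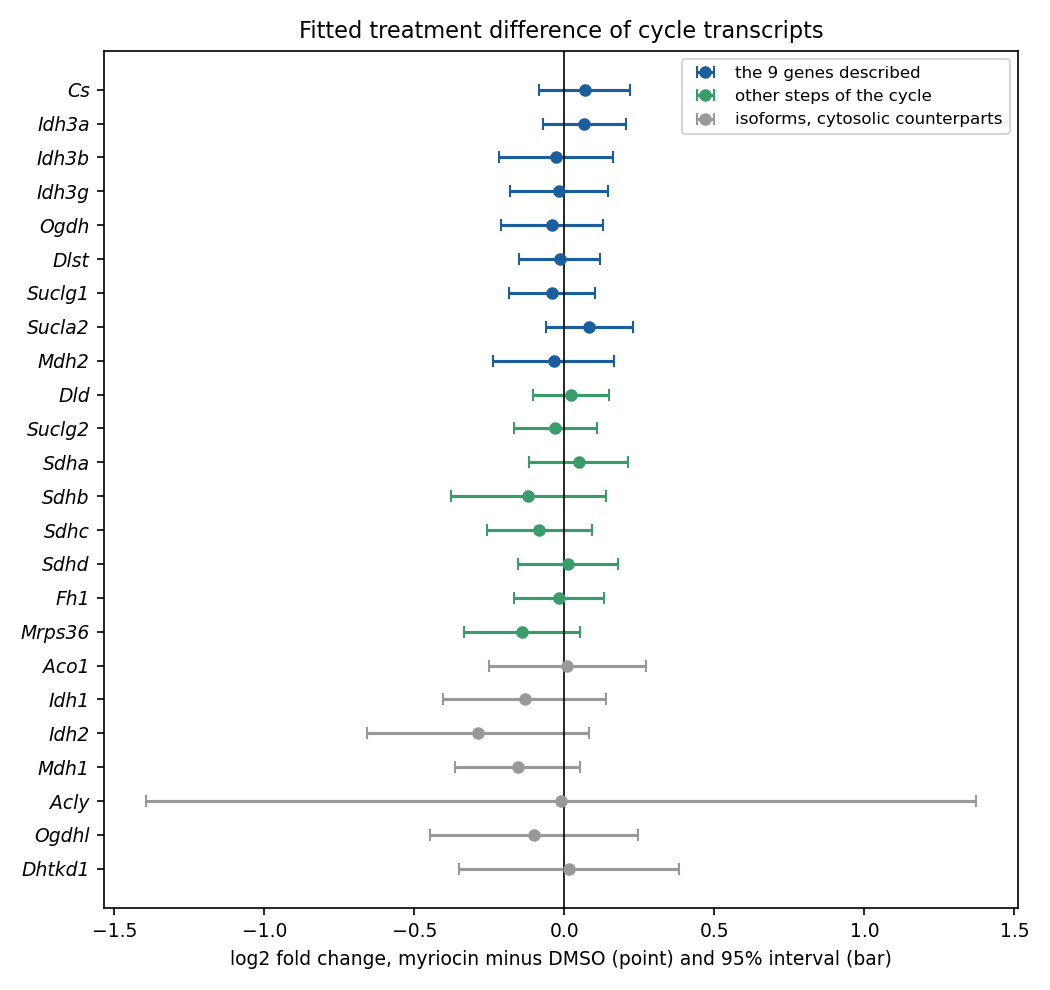
Fitted log2 fold change, myriocin minus DMSO (points, horizontal axis), with its 95% interval (bars) for the 9 cycle genes (blue), genes of the other steps (green) and tested isoforms and cytosolic counterparts (grey). Every interval includes 0, and those of the 9 genes run at most from -0.24 to 0.23.

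The remaining steps of the cycle gave a like picture. Of the 9 genes listed for them, 4 had positive and 5 negative log2 fold changes, 0 passed the test at either level, and the median was -0.02. The subunits of succinate dehydrogenase, which is also complex II of the respiratory chain, had 0.05 (Sdha), -0.12 (Sdhb), -0.08 (Sdhc) and 0.01 (Sdhd), with SEs of 0.08, 0.12, 0.08 and 0.08. Fh1, the fumarase, had -0.02, Dld, the dehydrogenase subunit shared with the pyruvate dehydrogenase complex, 0.02, and Suclg2, the GTP-forming beta subunit, -0.03. Mrps36, which also codes for an adaptor of the oxoglutarate dehydrogenase complex, had the lowest value, -0.14 (SE 0.09), with 6 of 6 myriocin libraries below the DMSO mean and an edgeR adjusted p of 0.936.

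Among isoforms and cytosolic counterparts of the cycle enzymes 0 genes were called, and Idh2 and Mdh1 had the lowest fitted values. Of 9 genes 7 were tested, 2 with positive and 5 with negative log2 fold changes, a median of -0.10, and 0 with an unadjusted p under 0.05. Idh2, the NADP-linked mitochondrial isocitrate dehydrogenase, had 233, 199, 244, 142 and 214 CPM in DMSO replicates 1 to 5 and a lowest, median and highest level of 115, 166 and 204 CPM with myriocin. All 6 myriocin libraries were below the DMSO mean of Idh2, yet DMSO replicate 4 lay below the myriocin median, and the log2 fold change of -0.29 (SE 0.17) had an edgeR adjusted p of 0.936. Mdh1, the cytosolic malate dehydrogenase of the malate-aspartate shuttle, had 517, 501, 548, 405 and 539 CPM with DMSO and 372, 436 and 495 CPM with myriocin. Its myriocin libraries were also all below the DMSO mean, again with DMSO replicate 4 among their range, and the log2 fold change was -0.16 (SE 0.10, edgeR adjusted p = 0.936). Idh1, the cytosolic NADP-linked enzyme, had -0.13 (SE 0.13), Ogdhl, a relative of Ogdh, -0.10 (SE 0.16), Aco1, an iron-regulatory protein, 0.01 (SE 0.12) and Dhtkd1, the dehydrogenase of oxoadipate, 0.01 (SE 0.17). Acly, which splits citrate in the cytosol for lipid synthesis, spanned 14.9 to 156 CPM among the DMSO libraries and had -0.01 (SE 0.62). Csl and Mdh1b were not tested. Csl had 3 to 11 reads per library and Mdh1b 0 to 2, which is under the floor of 3 counts, or 0.130 to 0.135 CPM.

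Lipoic acid is the cofactor of Dlst, and 3 genes for its making and attachment were tested. Lias, the lipoyl synthase, had a log2 fold change of 0.08 (SE 0.07), Lipt1, a lipoyl transferase, 0.02 (SE 0.14) and Lipt2, which acts before Lias, -0.05 (SE 0.14). None passed the test or had an unadjusted p under 0.05. Among 24 genes that fill or drain the cycle, 6 were positive and 18 negative, with a median of -0.05, and 0 passed, while 6531 of all genes tested were positive and 7586 negative. At an unadjusted p under 0.05 there were 2 of 24, beside 4.68% of all genes. Slc25a22, a mitochondrial glutamate carrier, averaged 32.6 ± 5.10 CPM in the DMSO libraries (SD, n = 5) and 22.2 ± 6.34 CPM in the myriocin libraries (SD, n = 6), for a fitted log2 change of -0.51 (SE 0.17, edgeR adjusted p = 0.936). Pck2, the mitochondrial phosphoenolpyruvate carboxykinase, which draws on oxaloacetate, stood at 7.18 ± 0.397 and 5.97 ± 0.735 CPM, a log2 fold change of -0.23 (SE 0.10, edgeR adjusted p = 0.936). The gene with the next smallest p was Got1, the cytosolic aspartate aminotransferase, at -0.17 (SE 0.10).

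Regulators of mitochondrial genes were described as a further list of 10. Of these 2 (Tfam and Sirt3, named after their values were seen) had positive and 8 negative log2 fold changes, the median was -0.04, 0 passed, and 1 had an unadjusted p under 0.05. That gene was Esrrb, an oestrogen-related receptor, which averaged 9.58 ± 2.57 CPM in the DMSO libraries (SD, n = 5) and 6.69 ± 1.94 CPM in the myriocin libraries (SD, n = 6), for a fitted log2 change of -0.48 (SE 0.22, edgeR adjusted p = 0.936). Esrra, its more abundant relative, had -0.13 (SE 0.10), and Perm1, a muscle co-regulator of mitochondrial and contractile genes, had -0.16 (SE 0.16). Myh4 had a log2 fold change of 0.20 (SE 0.08, unadjusted p = 0.0305, edgeR adjusted p = 0.936). The part of fibre type in the values of these lists was not tested.

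Levels of different genes were compared as CPM per kilobase of all annotated exons, averaged over the 11 libraries. Mdh2 stood highest at 197, followed by Ogdh at 178, Cs at 139, Idh3b at 128, Idh3g at 120, Idh3a at 105, Sucla2 at 97.4, Suclg1 at 43.2 and Dlst at 31.0. The ranges over libraries overlapped between most neighbours in this order. They did not overlap between Ogdh and Cs, between Sucla2 and Suclg1, and between Suclg1 and Dlst. The 3 isocitrate dehydrogenase subunits thus stood side by side, and in each of the 11 libraries Idh3b was above Idh3g and Idh3g above Idh3a. The exon length decides part of the order. With the length of the principal transcript, a choice made after seeing the data, the values in CPM per kilobase were 483 for Mdh2, 275 for Cs, 271 for Idh3b, 243 for Idh3g, 235 for Ogdh, 222 for Idh3a, 174 for Sucla2, 131 for Suclg1 and 107 for Dlst, so that Ogdh moved from below Mdh2 to between Idh3g and Idh3a. Mdh2 was the highest and Dlst the lowest with both lengths. On the exon scale, Suclg2 at 12.8 was far below Sucla2, so that the ATP-forming beta subunit had 7.61 times the level of the GTP-forming one per kilobase. The isoforms Idh2, at 71.0, and Ogdhl, at 0.728, stood below Idh3a and Ogdh.

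Partner transcripts of one complex or of paired reactions were compared as the ratio of their reads within a library, which does not depend on library scaling. The 8 ratios were tested with an exact 2-sided permutation test over all splits into 5 and 6 libraries, where the smallest possible p is 0.00216. None passed after adjustment over the 8. Sucla2 over Suclg2 was 6.28 with DMSO and 6.81 with myriocin as geometric means, a log2 difference of 0.12, with 6 of 6 myriocin libraries above the DMSO mean (exact p = 0.106, adjusted 0.286). Sucla2 over Suclg1 was 1.86 and 2.03, a log2 difference of 0.13, with 5 of 6 libraries above (exact p = 0.119, adjusted 0.286). Mdh2 over Mdh1 was 1.44 and 1.57, a log2 difference of 0.12, with 6 of 6 above (exact p = 0.143, adjusted 0.286). All 3 differences were above 0, with overlapping groups. Idh3g over Idh3a was 0.625 with DMSO and 0.592 with myriocin, a log2 difference of -0.08, with 5 of 6 libraries below the DMSO mean (exact p = 0.0996, adjusted 0.286). The difference was -0.09 for Idh3b over Idh3a (exact p = 0.227, adjusted 0.320). Without DMSO replicate 5 it was -0.03, and that of Idh3g over Idh3a was -0.05. Without DMSO replicate 2 the difference of Mdh2 over Mdh1 was 0.08. For Idh3b over Idh3g the difference was -0.01 (exact p = 0.775, adjusted 0.820), and for Ogdh over Dlst it was -0.02 (exact p = 0.820, adjusted 0.820).

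**Figure D3:**
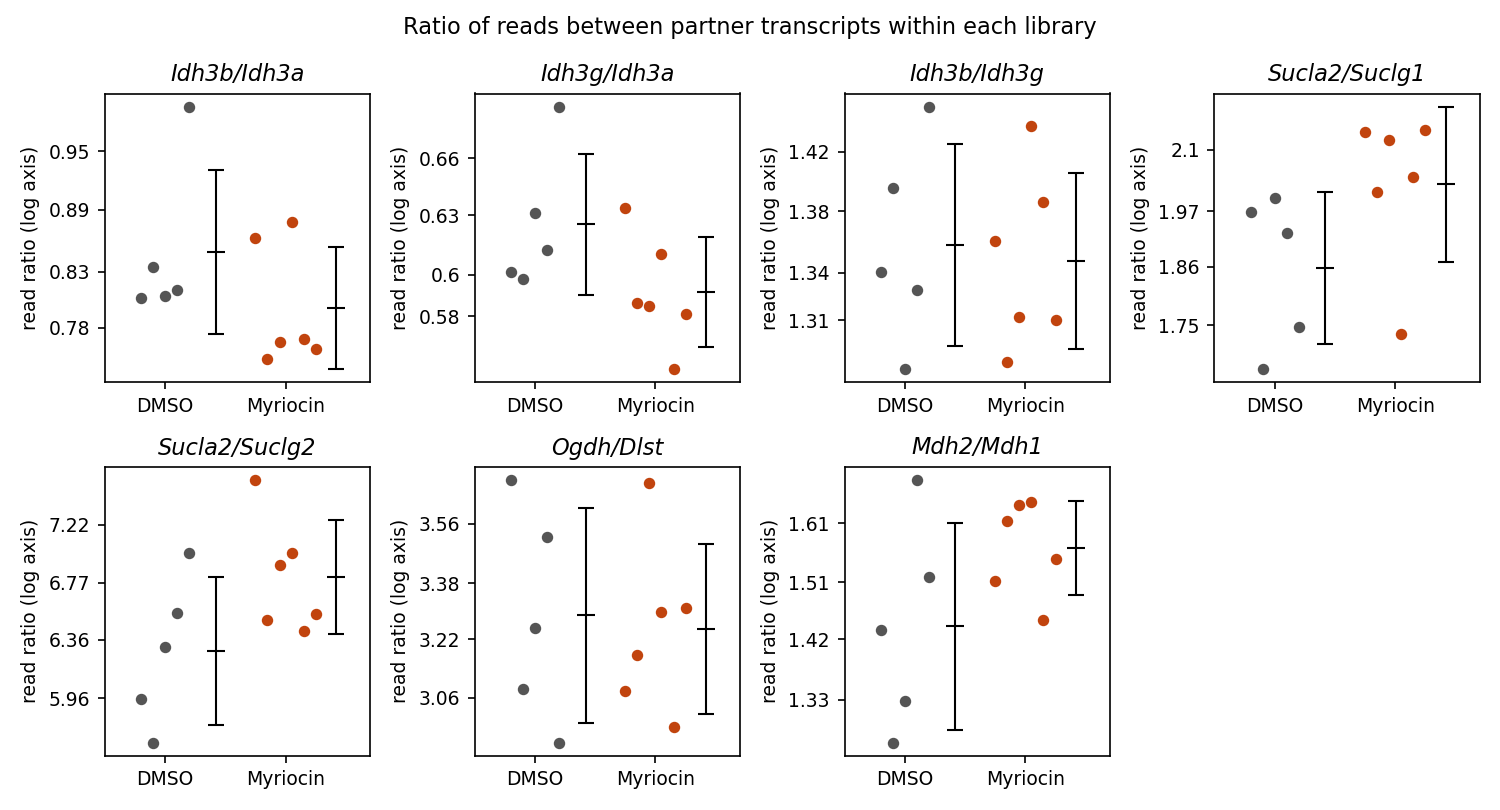
Ratio of reads between partner transcripts in each library (vertical axes, logarithmic, each with its own range) for DMSO (grey) and myriocin (orange), with the geometric mean and the SD on the log2 scale beside the points. The groups overlap in all 7 panels, and all 6 myriocin points of Sucla2/Suclg2 and of Mdh2/Mdh1 lie above the DMSO mean.

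Liver transcripts stood out in 3 of the libraries behind these ratios. Without those 3, leaving 3 DMSO and 5 myriocin libraries, the log2 difference was 0.16 for Sucla2 over Suclg1 and 0.21 for Mdh2 over Mdh1, each with an exact permutation p of 0.0179, the smallest that so few libraries can give, and an adjusted p of 0.0714. Sucla2 over Suclg2 then had 0.18 (exact p = 0.0357, adjusted 0.0952). Without the 3 libraries farthest out, the differences were 0.09 for Sucla2 over Suclg1, 0.07 for Mdh2 over Mdh1 and 0.11 for Sucla2 over Suclg2, with exact permutation p-values of 0.0357, 0.429 and 0.143. None of the adjusted values passed, and the sizes moved with the libraries kept.

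The libraries differed more from each other than the groups did. The mean log2 CPM of the 9 genes, scaled by the trimmed mean of M values (TMM), came to 8.84 ± 0.11 over the DMSO libraries (SD, n = 5) and to 8.85 ± 0.05 over the myriocin libraries (SD, n = 6). DMSO replicate 2 was the lowest library at 8.66. After TMM scaling all 9 genes were below their own mean over the 11 libraries there, and 7 of them at their lowest. Cs was 0.26 and Sucla2 0.25 log2 units below the mean in that library, and Suclg1 only 0.03. The TMM factor of that library was the highest, at 1.06. In CPM without TMM, Cs, Idh3a, Idh3g and Sucla2 were lowest there. Ogdh was then lowest in DMSO replicate 5, and Idh3b and Mdh2 in Myriocin replicate 3. Suclg1, at 208 CPM in DMSO replicate 2, was above the DMSO mean of 205 CPM. DMSO replicate 2 is also the library with 852 CPM of neutrophil and 1213 CPM of adipocyte transcripts. Its 5 fibre genes summed to 63188 CPM, within 59281 to 71270 CPM for the DMSO libraries and below the 65250 to 75142 CPM with myriocin. The part of neutrophil and adipocyte transcripts in the low values was not tested. In whole tissue, fewer muscle fibres and less RNA of the cycle per fibre cannot be told apart. Myriocin replicate 3 was, after TMM scaling, the lowest library for the other 2 genes, Dlst and Suclg1. In the mean it was the lowest of the myriocin libraries, at 8.77. It also had the lowest Myh2, the myosin of fast IIa fibres, at 364 CPM against 950 CPM or more in the others. The sum of 7 slow-fibre genes (Myh7, Tnni1, Tnnc1, Tnnt1, Myl2, Myl3 and Atp2a2) was also lowest there, at 65.2 CPM. In DMSO replicate 2, the lowest library for the cycle genes, this sum was 703 CPM. Over all libraries it ran from 65.2 to 711 CPM. The part of fibre type was not tested. DMSO replicate 5, at 8.95, was the highest library for 4 genes, Idh3b, Idh3g, Suclg1 and Mdh2.

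**Figure D4:**
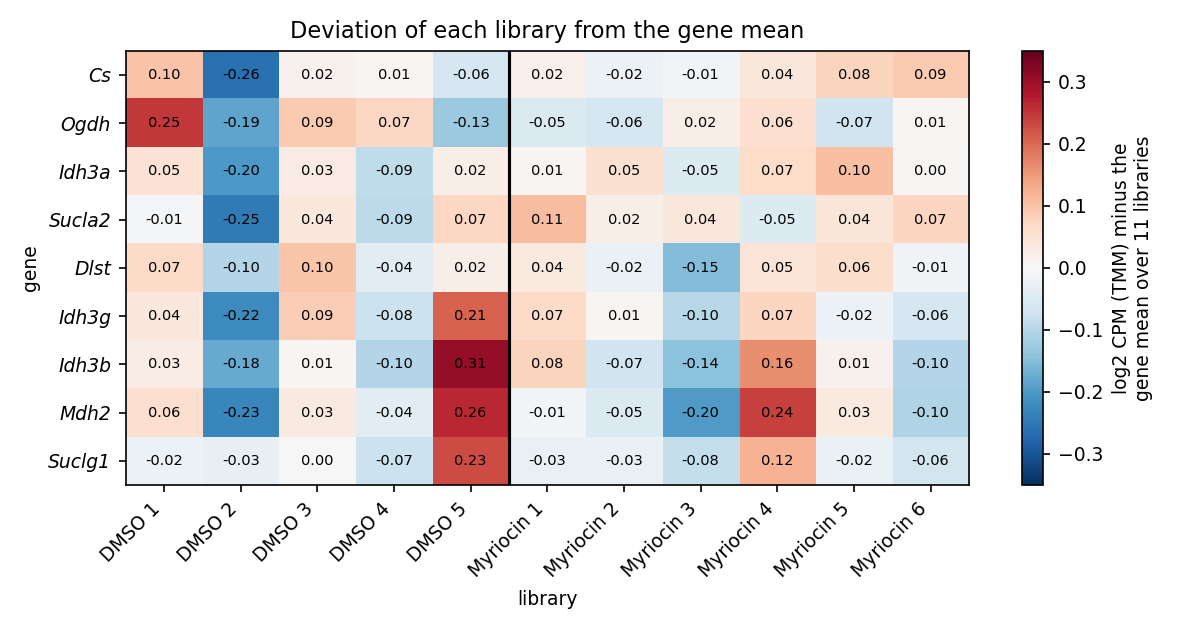
Log2 CPM after TMM scaling of each cycle gene (rows) in each library (columns) minus the mean of that gene over the 11 libraries, with DMSO left and myriocin right of the black line. DMSO replicate 2 is below 0 for all 9 genes, and DMSO replicate 5 is high for Idh3g, Idh3b, Mdh2 and Suclg1 while Cs and Ogdh are below 0.

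The 9 genes did not move across libraries as a single block. Of the 36 pairs, 33 had a positive Pearson correlation over the 11 libraries and 3 a negative one, with a median r of 0.56 and a range from -0.23 to 0.94. With 100000 permutations and adjustment over the 36 pairs, 5 pairs passed by r and 6 by Spearman's rho. All 5 lay among Idh3b, Idh3g, Suclg1 and Mdh2, where Idh3b and Idh3g belong to one enzyme and the others to other steps, and which were noticed as a set only after these values were seen. Idh3b and Mdh2 were closest, with r = 0.94 (permutation p = 1e-05, the smallest these permutations can give, adjusted 0.00036) and rho = 0.94 (permutation p = 9e-05, adjusted 0.00324), and r was 0.91 without DMSO replicates 2 and 5, the libraries farthest from the median. Idh3b and Idh3g had r = 0.91 (permutation p = 7e-05, adjusted 0.00126) and rho = 0.88 (permutation p = 0.00074, adjusted 0.0112), with r = 0.85 without the same libraries. Over the 6 pairs of these 4 genes r ran from 0.73 to 0.94, and from 0.48 to 0.91 without the 3 libraries with liver transcripts. When the 2 libraries farthest from the median of the first gene were left out, the lowest r was that of Suclg1 and Mdh2. It was 0.54 without DMSO replicate 5 and Myriocin replicate 4, against 0.84 over the 11 libraries. The high libraries of this set were DMSO replicate 5 and Myriocin replicate 4, 2 of the 3 with liver transcripts. They also had the lowest Ttn (7674 and 8141 CPM, against 8606 CPM or more elsewhere) and Neb (3629 and 3897 CPM, against 4547 CPM or more). The set also holds the 4 shortest principal transcripts of the 9 genes, 1331 to 1616 bases, against 2229 to 4127 bases for the other genes. The part of liver transcripts, transcript length or RNA quality in the correlation was not tested.

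Among Cs, Ogdh, Idh3a and Sucla2 no pair passed over the 11 libraries. Cs and Idh3a had r = 0.78 (permutation p = 0.0154, adjusted 0.0563) and rho = 0.45 (permutation p = 0.162, adjusted 0.325). Without DMSO replicates 1 and 2 the value of r was 0.28, so the relation rests on those libraries, while it was 0.88 without the 3 libraries with liver transcripts and 0.74 for deviations from the group means. Without the libraries with liver transcripts, Cs and Sucla2 had r = 0.86 and Idh3a and Sucla2 r = 0.78, against 0.48 for Idh3g and Suclg1, 0.58 for Idh3b and Suclg1 and 0.65 for Suclg1 and Mdh2, so the order of the pairs depended on those 3 libraries. The 3 negative values of r were those of Ogdh with Suclg1 (-0.23), Cs with Suclg1 (-0.11) and Ogdh with Idh3b (-0.02), and none passed. All pairs share the same 11 libraries and the same scaling.

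**Figure D5:**
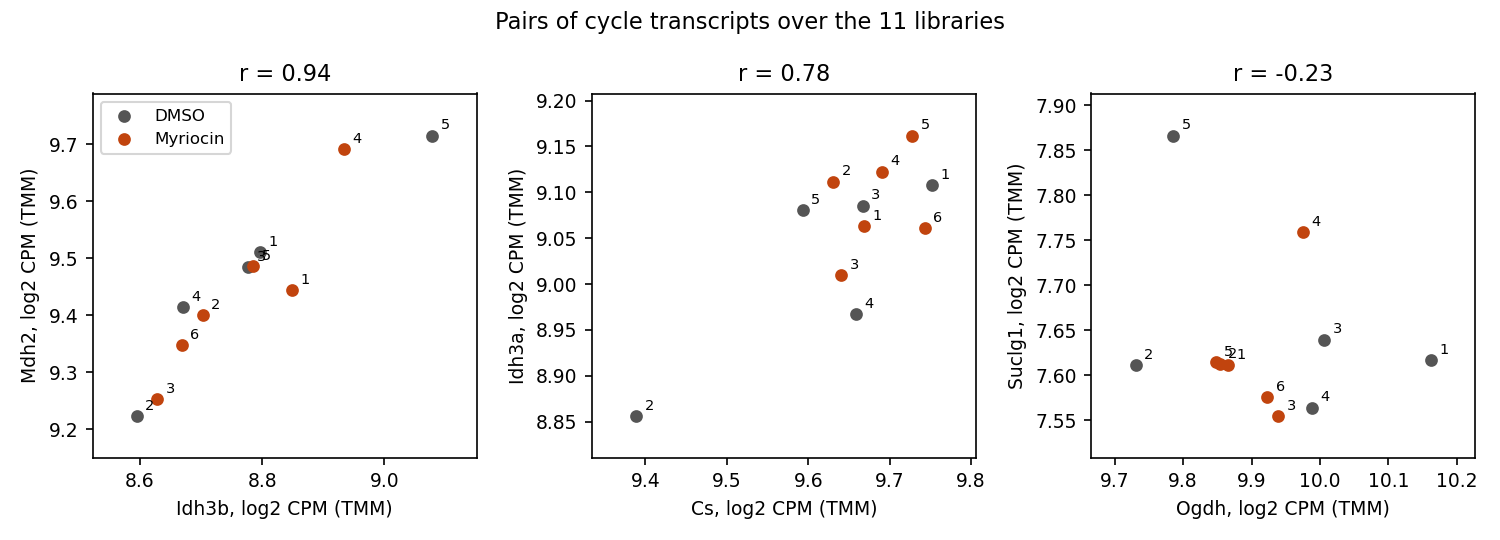
Log2 CPM after TMM scaling of 3 pairs of cycle genes over the 11 libraries, DMSO in grey and myriocin in orange, numbered by replicate. Idh3b and Mdh2 rise together (r = 0.94), Cs and Idh3a have r = 0.78 with DMSO replicate 2 alone at the lower left, and Ogdh and Suclg1 have r = -0.23.

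The genes whose levels were most like the mean of the 9 were sought among 7138 genes with a mean of at least 10 CPM, by Pearson's r over the 11 libraries and as a description. They were Coq5 (r = 0.96) and Coq9 (r = 0.92), both of ubiquinone synthesis, Hdhd5 (r = 0.93), Mfn1, a mitochondrial fusion protein (r = 0.93), and Atp5b, the beta subunit of ATP synthase (r = 0.92). Without DMSO replicate 2 the r of these genes lay between 0.84, for Hdhd5, and 0.94, for Atp5b. Their own log2 fold changes lay between -0.06, for Mfn1, and 0.00, for Atp5b, and none passed the test.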

How the data were processed

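Total RNA of quadriceps, prepared with a Direct-zol kit, was sequenced on the DNBseq platform, per the labels' protocols. Raw read counts per Ensembl gene were deposited for 11 libraries, and the submitters' processing notes name STAR 2.5.2b, HTSeq 0.6.0 and the build GRCm38. Strand setting and annotation release were not given in the sources used here, and reads of overlapping genes on opposite strands may not be told apart. Of 53470 lines, 5 were HTSeq summary lines with 24.8% to 28.2% of the reads, and they stayed out of library sizes and tests. Gene totals were 22241131 to 23163721, so that 3 counts correspond to 0.130 to 0.135 CPM, and intervals cover counting error and the fitted spread only. Pairs of libraries within a group differed by 8.18 to 44.2 in chi-square per degree of freedom, so none was a copy.

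Testing used edgeR 4.0.16 (R 4.3.3): filterByExpr with a minimum count of 10 and a minimum total of 15, TMM scaling, robust quasi-likelihood F test, and treatment as the only factor, with Benjamini-Hochberg adjustment over 14117 genes and a threshold of 0.05. The scripts were tested on simulated data. The SE was back-calculated from F and the fitted fold change. CPM values are relative to the total gene counts of a library, without TMM, except the log2 CPM of the library pattern and the correlations (TMM, prior count 2). Ratios used raw counts, with 0.5 added to each, in exact permutation tests that enumerated every split. Their p-values were adjusted by the Benjamini-Hochberg method with scipy 1.17.1.

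The 9 genes, the gene lists and the alternatives were chosen with earlier results of these data known. Named genes were all of the 9, all genes of the lists of other cycle steps, isoforms and lipoyl genes, the 3 with the smallest p of the filling and draining and of the regulator lists, and the 5 genes most correlated with the mean of the 9. Tfam, Sirt3, the markers named singly and the fatty acid oxidation genes were named after their values were seen. Of these, 1 gene and its ratio, 1 of the 8 tested, are not reported here. The alternatives were other scalings, filters and tests (DESeq2 1.42.0, limma-voom 3.58.1), an adjusted threshold of 0.10, a replicate block and leaving out libraries.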

Additional observations from a re-analysis of the deposited data

Results flagged for a closer look

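Of 34 groups of values checked (the CPM of each of the 9 genes and the 8 log2 ratios, in each treatment group), 3 held a library far from the others of its group, where chance gives about 1 in 20. Sucla2 stood at 359 CPM in Myriocin replicate 4, below the other myriocin libraries at 391 to 409 CPM. The log2 ratio of Sucla2 to Suclg1 in the same library was 0.79, against 1.01 to 1.10 in the others. The log2 ratio of Idh3b to Idh3a in DMSO replicate 5 was -0.00197, against -0.31 to -0.26 in the other DMSO libraries. Both libraries are among the 3 with raised liver transcripts, at 123 CPM in Myriocin replicate 4 and 101 CPM in DMSO replicate 5, and DMSO replicate 4, the other one with 116 CPM, was not far from its group in any of the 34. The flagged libraries also had the lowest Ttn and Neb, at 8141 and 3897 CPM in Myriocin replicate 4 and 7674 and 3629 CPM in DMSO replicate 5. DMSO replicate 4 had 9280 and 4731 CPM. Each flagged ratio sets principal transcripts of unlike length against each other, Sucla2 (2229 bases) to Suclg1 (1519 bases) and Idh3b (1616 bases) to Idh3a (2403 bases). The part of liver transcripts, transcript length or RNA quality was not tested.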

How the results depend on the processing

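Across 23 alternatives, which covered scaling, filter, test, threshold, replicate block and libraries left out, 0 of the 9 genes and 0 of the other cycle steps passed the adjusted threshold. Over all genes the count was 6 with the DESeq2 test and 0 in the other alternatives. The replicate block over 10 libraries gave a median log2 fold change of the 9 genes of -0.0039, 0 calls and 509 genes at an unadjusted p under 0.05. The labels do not say whether equal replicate numbers pair the libraries. The correlation of same-numbered libraries lay between -0.132 and 0.0866 over 5 pairs, and 0 of 5 correlated best with its own number. No pairing was seen in this way, which does not exclude it. The number of genes at an unadjusted p under 0.05 was 660 in the fit reported, 1449 without Myriocin replicate 4, 1022 without the 3 libraries with liver transcripts, 1140 without the 3 farthest out and 1167 without a filter. Among the 9 genes it was 1 (Ogdh) without the 3 farthest out and 0 otherwise. Their median log2 fold change was -0.0171 in the fit reported and -0.0521 without scaling. Leaving out 1 library moved that median between -0.0539 (without DMSO replicate 2) and 0.0329 (without DMSO replicate 5).

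Of 198 values of the 9 genes, 185 kept their sign and 13 did not, all of the latter when libraries were left out, and Idh3a and Sucla2 kept theirs throughout. Without the 3 libraries farthest out, Cs had -0.011 and the log2 ratio of Idh3b to Idh3g differed by 0.0152. Without the 3 with liver transcripts, Idh3b had 0.0052 and Idh3g 0.0092. Leaving out 1 library at a time gave 0.0155 to 0.1037 for Cs, 0.0276 to 0.0894 for Idh3a and 0.0361 to 0.1113 for Sucla2, the lowest each without DMSO replicate 2, and -0.0743 to 0.0507 for Idh3b, -0.0709 to 0.0329 for Idh3g, -0.0899 to 0.0195 for Ogdh, -0.0434 to 0.0115 for Dlst, -0.0706 to 0.0125 for Suclg1 and -0.0926 to 0.0284 for Mdh2. For the log2 ratio of Idh3b to Idh3g it gave -0.0325 to 0.0128, for Ogdh to Dlst -0.0578 to 0.0245, for Idh3b to Idh3a -0.1189 to -0.0327 and for Idh3g to Idh3a -0.0999 to -0.0455, both nearest 0 without DMSO replicate 5, and for Mdh2 to Mdh1 0.0767 to 0.1792. For Sucla2 to Suclg2 it gave 0.0811 to 0.1568. For Sucla2 to Suclg1 it gave 0.0872 to 0.1701, the highest without Myriocin replicate 4 (exact permutation p = 0.00794, adjusted 0.0635). The cause was not tested. Each of the 9 genes had at least 4309 reads in every library.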

Other observations

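Fatty acid oxidation feeds acetyl-CoA into the cycle, and 17 genes of its mitochondrial steps were listed after the data had been seen, so that the values are a description. Of the 17, 16 had negative log2 fold changes and 1 (Decr1, 0.01) a positive one, with a median of -0.13 beside -0.02 for the 9 cycle genes and -0.01 for all genes tested, of which 7586 were negative and 6531 positive. In edgeR's quasi-likelihood test 0 of the 17 passed, and 1 gene, beside 4.68% of all genes tested, had an unadjusted p under 0.05. That was Cpt2, the inner-membrane carnitine palmitoyltransferase, which averaged 70.5 ± 2.72 CPM in the DMSO libraries (SD, n = 5) and 61.3 ± 3.97 CPM in the myriocin libraries (SD, n = 6), for a fitted log2 change of -0.17 (SE 0.07, unadjusted p = 0.0235, edgeR adjusted p = 0.936), with 6 of 6 myriocin libraries below the DMSO mean. The next smallest p-values were those of Acadl, the long-chain dehydrogenase, at -0.17 (SE 0.09, 5 of 6 libraries below), and Acaa2, a thiolase, at -0.22 (SE 0.12, 6 of 6 below), with an edgeR adjusted p of 0.936 for both. Markers of fibre and cell types had values beside these: Myh2, the fast IIa myosin, -0.56 (SE 0.35), and Myh4, the fast IIb myosin, 0.20 (SE 0.08). Myh1, the fast IIx myosin, had -0.12 (SE 0.15). Of 7 slow-fibre genes, 2 were positive and 5 negative, with a median of -0.10 and a median SE of 0.95. Mb, myoglobin, had -0.29 (SE 0.22) with 6 of 6 myriocin libraries below the DMSO mean. Mb was the 1 negative gene of the 5 fibre genes, and 4 were positive, among them Ttn with 0.26 (SE 0.10) and Neb with 0.28 (SE 0.13). All 6 endothelial genes were negative, Cldn5 with -0.51 (unadjusted p = 0.00263, edgeR adjusted p = 0.936). All 3 muscle stem cell genes were positive, Pax7 with 0.72 (unadjusted p = 0.00912, edgeR adjusted p = 0.936). Of 5 fibro-adipogenic genes, 3 were positive and 2 negative. The part of fibre and cell types in the values of the fatty acid oxidation list was not tested. The difference between that list and the 9 cycle genes was not tested.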
